A study of Mus musculus with 24 samples.

Results

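The genes described here are the DNA replication and licensing genes of the mouse lens: the origin recognition complex, the factors that load and fire the replicative helicase, the replicative polymerases with their clamp, clamp loader and single-strand binding protein, the enzymes that join the lagging strand, and 4 enzymes of deoxynucleotide synthesis. They were chosen by gene symbol alone, with no measured value in the rule. The rule found 52 of the 12611 genes in the count table, and all 52 passed the filter on low counts. The symbol rule also takes in Mcm8 and Mcm9, helicases known from recombination repair rather than from origin firing, and they are described apart from the others.

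The libraries hold total RNA of lens epithelium or lens fiber, dissected from CD1 mice, an outbred stock, at 3 embryonic stages, named E14.5, E16.5 and E18.5 for the day of gestation, and just after birth at P0.5. The 8 groups hold 3 biological replicates each, 24 libraries in all, and no group carries a genetic change or a treatment. The sources used here do not say if lenses were pooled for a replicate, or if the 2 tissues of 1 replicate number came from the same animals. The design compares the tissues at each stage and the stages within each tissue.

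The lens epithelium is a single layer of cells on the front of the lens, and its dividing cells lie mostly in a band near the equator. Cells that leave this band withdraw from the cell cycle, elongate and become fiber cells, which fill the lens with crystallin and later lose their nuclei. In dividing cells the origin recognition complex marks origins, Cdc6 and Cdt1 load the MCM2-7 helicase on them (licensing), and the kinases Cdc7-Dbf4 and CDK fire the loaded helicase by adding Cdc45 and GINS. E2F factors are known to drive many of these genes at the entry into S phase.

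Epithelium libraries held 7658794 to 11819117 counts and fiber libraries 13010174 to 21617737. Levels are given as CPM, counts scaled to a common library total on the TMM-adjusted library size, a scaling that takes most genes as equal between libraries. The labelled tissues carried their markers: 5 epithelium markers, among them Foxe3 and Cdh1, were all lower in fiber at each stage, and their summed level in fiber was 17.3%, 12.6%, 9.14% and 10.3% of that in epithelium from E14.5 to P0.5. All 8 fiber markers were higher in fiber in the difference averaged over the stages. In bulk samples, fewer cells of a type and less RNA per cell cannot be told apart. Markers of other cells were also higher in epithelium. All 8 endothelium markers were lower in fiber on average, with summed levels of 236 to 441 CPM over the epithelium libraries and 10.6 to 37.6 CPM over the fiber libraries, and so were all 5 mural cell markers (232 to 448 and 26.2 to 55.4 CPM) and 4 of 5 macrophage markers (7.36 to 17.1 and 1.04 to 4.11 CPM). Single genes made up most of the sums in E14.5 fiber. Notch3 had a mean of 48.5 CPM there, of a mural sum of 53.6 CPM. Tek had 21.8 CPM, of an endothelium sum of 30.8 CPM. Each other marker of these 2 lists had a mean of at most 3.30 CPM in E14.5 fiber. In E14.5 epithelium Notch3 had 149 CPM, of a mural sum of 242 CPM. All 6 retina and ciliary margin markers and all 6 pigment cell markers were lower in fiber on average too. Their sums in fiber were 2.73 to 9.42 and 1.88 to 6.12 CPM. By age, the retina and ciliary margin sum in fiber was 30.8%, 19.4%, 3.66% and 3.77% of that in epithelium. The pigment sum was 47.7%, 71.3%, 3.48% and 2.65%. Pigment sums of the tissues overlapped in the E14.5 and E16.5 libraries. Of the pigment markers, Mlana had no count in E14.5 or E16.5 fiber. The part of these cells in the differences between the tissues was not tested.

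Most replication genes were lower in fiber than in epithelium at every stage, but they were not lower to one degree. A gene was called at an adjusted p under 0.05 in edgeR's quasi-likelihood test and a difference of at least 2-fold. At E14.5, 39 of 52 genes (75%) were lower in fiber, against 19.4% of all genes tested, and 1 was higher, against 14%. The E16.5 libraries gave 39 lower genes, against 20.4%, and 1 higher, against 14.6%. For E18.5 there were 37 lower genes, against 24.2%, and 1 higher, against 17.4%. By P0.5, 36 were lower, against 24.5%, and 2 higher, against 17.5%. Without a minimum on the fold, the 4 stages in order of age gave 45, 43, 40 and 37 lower genes, against 38.4%, 39.7%, 42.5% and 43.3%, and 4, 5, 3 and 4 higher, against 38.4%, 38.2%, 39.8% and 39.6%. In the difference averaged over the 4 stages 38 genes were lower, against 22.2% of all genes, 1 was higher, against 15.7%, and 13 were not called. Without the fold minimum 44 were lower, against 46.4%, and 6 higher, against 44%. The median log2 difference was -1.92 over the replication genes and -0.03 over all genes tested. In 37 of 52 genes (71.2%) all 12 fiber libraries lay below all 12 epithelium libraries, which was so for 24.7% of all genes tested.

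The same 36 genes were lower in fiber at all 4 stages. Of all genes tested, at most the 19.4% lower at E14.5 could be lower at all 4 stages. Dbf4, Mcm9 and Mcm10 were lower at 2 stages, and Rpa2 at 1 stage. Orc2 and Pold4 were higher at 2 stages each and Pold2 at 1 stage. The remaining 9 genes were called at no stage: Orc3, Orc4, Orc5, Gins4, Pole3, Pole4, Rfc1, Rfc2 and Rpa1. The 38 averaged calls of lower genes held with each library left out in turn and under each scaling tried. The genes near or above 0 depended on the scaling: with library size alone in place of TMM, the median difference of all genes moved from -0.03 to -1.23, and no replication gene was called higher. The members' median moved with it, from -1.92 to -3.12.

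**Figure D1:**
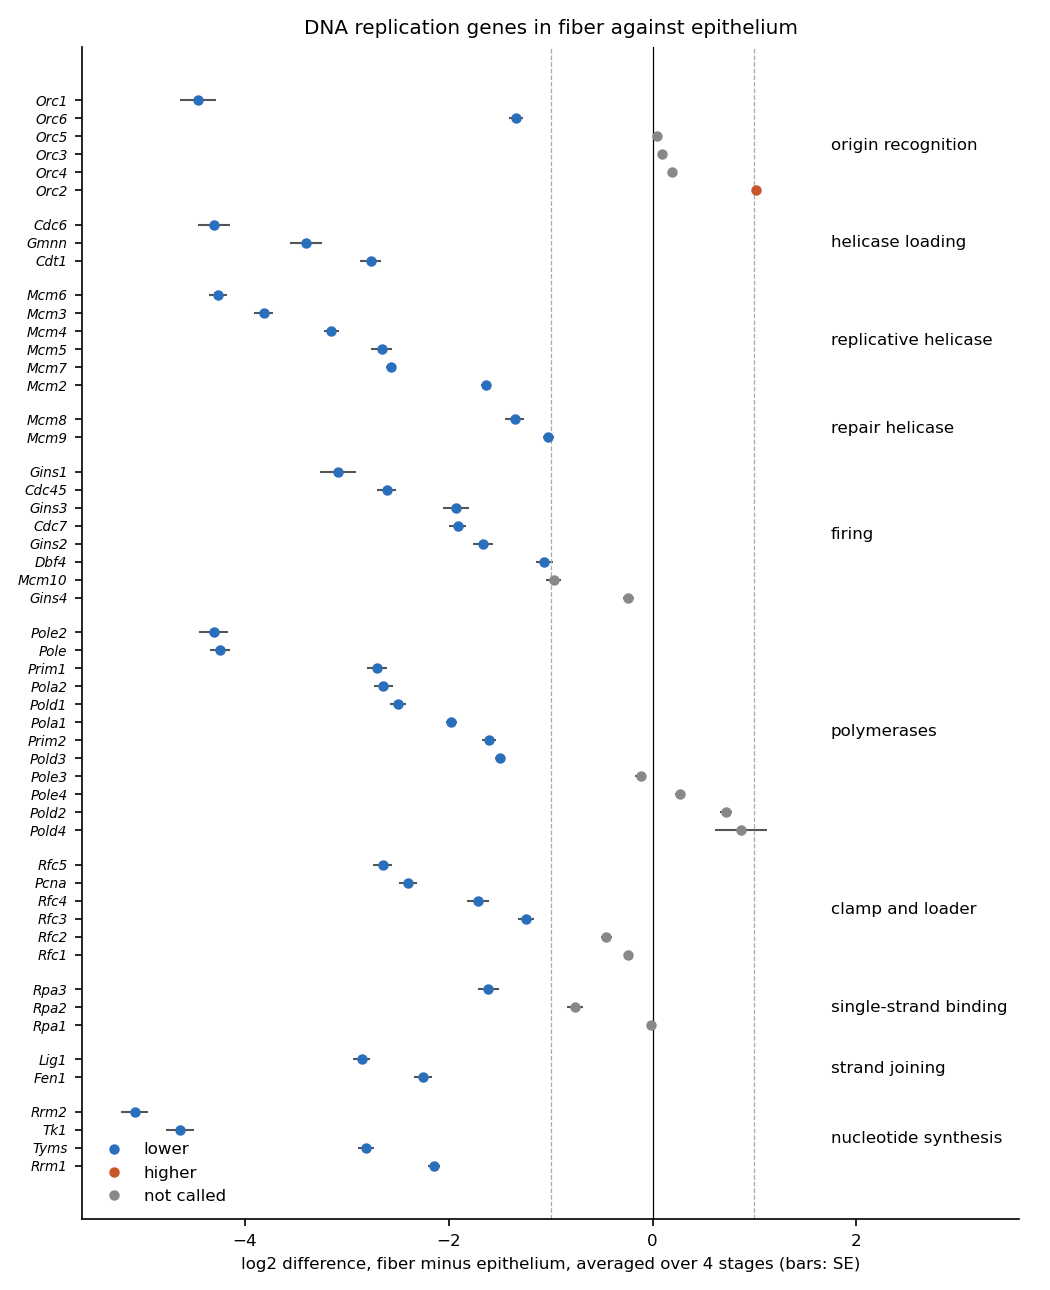
Averaged log2 difference of each of the 52 replication genes, fiber minus epithelium, with bars for the SE of edgeR's fit and dashed lines at 2-fold, grouped by role. Blue points are called lower (38), the red point is called higher (Orc2) and grey points are not called (13). The members of 1 complex are spread widely, from -4.46 for Orc1 to 1.02 for Orc2 in the origin recognition complex.

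Promoter sequence is shown for the genes at both ends of this order, Rrm2, Tk1 and Orc1 at the low end and Orc2, Pold4 and Pold2 at the high end, and for Mcm6 and Mcm5, a pair of subunits of 1 helicase of which Mcm6 fell in fiber over time and Mcm5 did not. Mcm6 and Mcm5 were added after their values had been seen. The stretches are from RefSeq promoters (GRCm38.p6), read 5′ to 3′ on the gene's strand, cut to the part upstream of the gene that holds no annotated exon, and capitals mark matches to the motifs searched. E2F-type sites were searched as GCGGGAA and in a second spelling as TTGGCGC and in the remaining spelling as TTCGCGC. The NF-Y site was searched as CCAAT. Both strands were read for each motif, and overlapping matches were counted separately. Rrm2 is at chr12:24708041-24708240 (plus strand), Tk1 at chr11:117826093-117826264 (minus), Orc1 at chr4:108579337-108579422 (plus), Orc2 at chr1:58505110-58505147 (minus), Pold4 at chr19:4231693-4231892 (plus), Pold2 at chr11:5878293-5878492 (minus), Mcm6 at chr1:128359706-128359905 (minus) and Mcm5 at chr8:75109309-75109508 (plus).
Rrm2: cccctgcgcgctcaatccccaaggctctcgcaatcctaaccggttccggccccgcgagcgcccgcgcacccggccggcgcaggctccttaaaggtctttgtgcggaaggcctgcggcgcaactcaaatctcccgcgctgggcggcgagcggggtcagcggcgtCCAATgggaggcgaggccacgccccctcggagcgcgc
Tk1: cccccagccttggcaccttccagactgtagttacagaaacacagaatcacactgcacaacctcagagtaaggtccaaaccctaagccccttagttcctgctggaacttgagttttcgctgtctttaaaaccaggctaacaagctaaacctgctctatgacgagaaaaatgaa
Orc1: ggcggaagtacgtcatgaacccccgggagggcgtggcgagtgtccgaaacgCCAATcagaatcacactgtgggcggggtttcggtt
Orc2: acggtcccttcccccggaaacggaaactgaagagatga
Pold4: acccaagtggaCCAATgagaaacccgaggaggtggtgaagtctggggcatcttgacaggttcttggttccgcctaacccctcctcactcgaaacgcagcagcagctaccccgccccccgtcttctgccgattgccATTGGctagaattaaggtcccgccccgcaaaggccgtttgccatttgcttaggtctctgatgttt
Pold2: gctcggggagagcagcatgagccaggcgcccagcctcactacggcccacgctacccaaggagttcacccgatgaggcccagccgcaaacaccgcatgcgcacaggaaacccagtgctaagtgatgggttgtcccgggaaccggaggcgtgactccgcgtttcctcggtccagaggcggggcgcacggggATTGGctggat
Mcm6: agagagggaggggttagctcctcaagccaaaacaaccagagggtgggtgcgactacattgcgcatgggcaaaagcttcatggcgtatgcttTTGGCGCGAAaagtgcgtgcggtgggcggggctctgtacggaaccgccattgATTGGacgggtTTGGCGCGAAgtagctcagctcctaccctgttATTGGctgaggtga
Mcm5: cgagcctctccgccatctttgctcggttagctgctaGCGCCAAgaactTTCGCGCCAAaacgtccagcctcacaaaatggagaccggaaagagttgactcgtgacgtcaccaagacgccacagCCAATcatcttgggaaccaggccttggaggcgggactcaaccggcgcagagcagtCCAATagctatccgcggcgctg
The Mcm6 stretch holds 4 E2F-type and 2 CCAAT matches, and the Mcm5 stretch holds 3 and 2. No E2F-type match lies in the other stretches, which says only that these letters are absent there. Orc1 has 1 E2F-type match in the 250 bases before its start, outside the stretch shown. Of the 52 genes, 44 had a promoter in the table (not Gins4, Prim2, Rfc2, Gins2, Gins1, Gmnn, Pole or Mcm4). In the 250 bases before the start, an E2F-type match was found in 15 of 44 (34.1%), against 13% of 9558 genes tested and 6.84% of all 27025 promoters. CCAAT was found in 25 of 44 (56.8%), against 36.8% of genes tested and 34.5% of all promoters. Among genes lower in fiber at all 4 stages, 11 of 30 (36.7%) held an E2F-type match, and among the other replication genes 4 of 14 (28.6%) did. These shares are descriptions, and a match is not evidence of binding.

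The 6 subunits of the origin recognition complex spanned the widest range of averaged differences of any role. Orc1, the subunit known to rise and fall with the cell cycle (gene at chr4:108579423-108614833, GRCm38), was at 13.2, 11.3 and 12.2 CPM in E14.5 epithelium and 0.795, 0.467 and 1.01 CPM in E14.5 fiber. At P0.5 it was at 4.06, 4.68 and 5.57 CPM in epithelium and 0.380, 0.638 and 0.105 CPM in fiber. Every fiber library was below every epithelium library, and 2 fiber libraries had no Orc1 count. The averaged log2 difference was -4.46 (SE 0.18, adjusted p = 1.89e-17) in edgeR's quasi-likelihood test. Fiber held 29 Orc1 counts over 3 libraries at E14.5 and 6 at the next stage, and the fiber to epithelium ratios carry wide counting intervals (0.0630 with a 95% interval of 0.0418 to 0.0916 at the first stage, and 0.0243 with 0.00887 to 0.0536 at the next).

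Orc2, a core subunit (gene at chr1:58462771-58505109), went the other way. At E14.5 its levels were 43.5, 43.1 and 38.9 CPM in epithelium and 71.3, 69.8 and 75.0 CPM in fiber, and 27.4, 28.6 and 30.2 against 63.0, 71.9 and 68.8 CPM at P0.5. All 12 fiber libraries were above all 12 epithelium libraries. The averaged log2 difference was 1.02 (SE 0.03, adjusted p = 6.97e-20) in edgeR's quasi-likelihood test, and it was -0.19 with library size alone and 0.42 with crystallins and the ribosomal RNA precursor Rn45s left out of the library size. On the opposite strand, Nif3l1 overlaps 29.8% of the Orc2 exon length, so reads of the pair may be shared. The sources used here do not state how strand was set in counting.

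Orc3, Orc4 and Orc5, the other core subunits, differed little between the tissues. Over 12 libraries each, Orc3 was at 53.0 to 66.5 CPM (median 59.3) in epithelium and 54.6 to 73.0 CPM (median 64.4) in fiber. Orc4 was at 36.5 to 48.2 CPM (median 45.9) and 41.8 to 62.3 CPM (median 49.8), and Orc5 at 18.8 to 21.7 CPM (median 20.6) and 17.9 to 24.5 CPM (median 21.2). The ranges overlap for all 3 genes. Their averaged log2 differences were 0.09 (SE 0.03), 0.19 (SE 0.04) and 0.05 (SE 0.04), and with library size alone they turned to -1.11, -1.02 and -1.16, close to the median of all genes under that scaling. Orc6, the smallest subunit, was lower in fiber at each stage, with an averaged difference of -1.34 (SE 0.07) and levels of 4.92 to 8.71 CPM (median 7.15) in fiber against 13.7 to 25.3 CPM (median 17.7) in epithelium.

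The 3 genes of helicase loading were all lower in fiber at each stage. Cdc6, the ATPase that brings the helicase to the origin complex, was at 24.9, 22.4 and 22.5 CPM in E14.5 epithelium and 1.59, 1.495 and 1.77 CPM in E14.5 fiber. At P0.5 its levels were 5.41, 7.69 and 11.9 and 0.127, 0.559 and 1.05 CPM. The groups did not overlap, and the averaged log2 difference was -4.30 (SE 0.16, adjusted p = 4.16e-18) in edgeR's quasi-likelihood test. Cdt1, the partner of Cdc6 in loading, was at 10.3 to 33.2 CPM (median 17.2) in epithelium and 1.77 to 3.71 CPM (median 2.84) in fiber, an averaged difference of -2.77 (SE 0.10). Gmnn encodes geminin, the inhibitor of Cdt1, and its averaged difference was -3.40 (SE 0.15), and the loader and its inhibitor were thus both lower in fiber.

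All 6 subunits of the replicative helicase were lower in fiber at all 4 stages, yet by different amounts. Mcm6 (gene at chr1:128331590-128359664) was at 129, 120.5 and 125 CPM in E14.5 epithelium and 11.1, 7.94 and 12.7 CPM in E14.5 fiber. At E18.5 the values were 90.4, 86.9 and 88.5 and 2.50, 3.06 and 3.84 CPM. Mcm2 (gene at chr6:88883474-88898780) was at 150, 142 and 158 CPM in E14.5 epithelium, 50.04, 47.6 and 46.6 CPM in E14.5 fiber, 103, 101 and 96.9 CPM in E18.5 epithelium and 30.7, 35.8 and 37.1 CPM in E18.5 fiber. No fiber library reached an epithelium library in either gene. The averaged log2 difference was -4.27 (SE 0.09, adjusted p = 5.91e-23) for Mcm6 and -1.63 (SE 0.05, adjusted p = 9.74e-20) for Mcm2 in edgeR's quasi-likelihood test. The other subunits lay between them, with -3.81 for Mcm3, -3.15 for Mcm4, -2.66 for Mcm5 and -2.57 for Mcm7.

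Levels of different genes were compared per length, as CPM per kb of exon. In epithelium the 6 helicase subunits were close to each other: the highest was 1.44 times the lowest at E14.5 and 1.65, 1.78 and 1.71 times at the later stages, with Mcm4 the highest throughout. In fiber the ratio was 3.96 at E14.5 and then 6.26, 7.39 and 5.51, with Mcm2 the highest throughout. At E18.5, Mcm2 was at 4.96 ± 0.483 CPM per kb (SD, n = 3) in fiber and Mcm6 at 0.672 ± 0.144. The order of Mcm2 and Mcm6 in epithelium at that stage was the reverse, with 14.4 ± 0.420 and 19.0 ± 0.374 CPM per kb.

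Other complexes also held a wider range of levels in fiber. In the origin recognition complex the highest subunit was 3.18 times the lowest per kb in epithelium and 85.7 times in fiber at E14.5, where Orc2 was highest and, in fiber, Orc1 lowest. For the clamp loader, with Rfc1 highest in each group, the ratio at P0.5 was 4.54 in epithelium and 24.8 in fiber. For DNA polymerase epsilon it was 1.73 and 23.7 at E14.5, and 3.44 and 73.1 at P0.5. DNA polymerase delta did not follow this at E14.5, with 88.0 in epithelium and 31.5 in fiber, or at E16.5, with 41.6 and 25.6. Its lowest subunit was Pold4, with few counts in both tissues. These ratios rest on annotated exon length and were not tested.

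**Figure D2:**
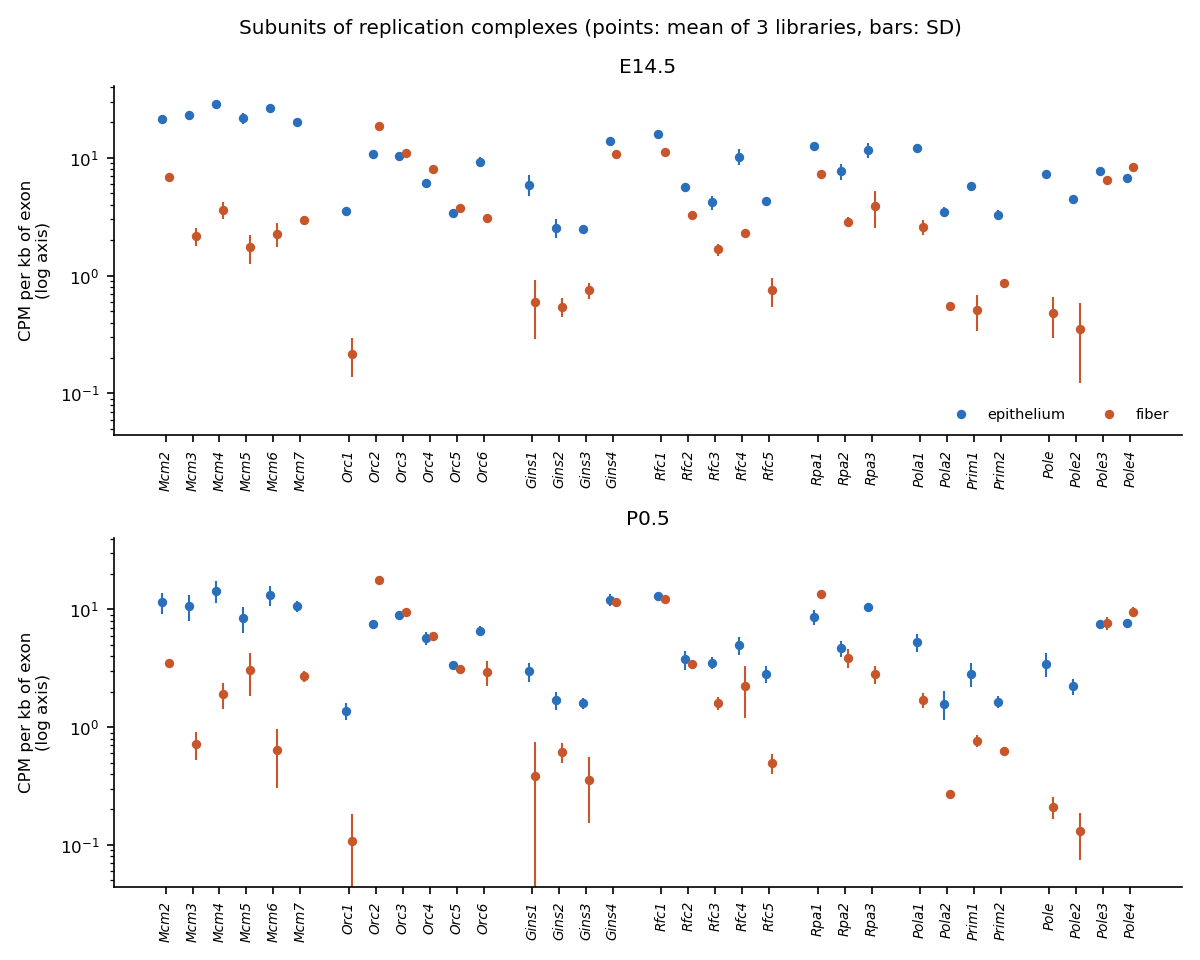
Level per length (CPM per kb of exon, log axis) of the subunits of 7 replication complexes at E14.5 and P0.5; points are means of 3 libraries, bars are SD, blue is epithelium and red is fiber. The 6 helicase subunits lie close together in epithelium (highest over lowest 1.44 at E14.5) and apart in fiber (3.96), and Orc3 to Orc5, Gins4, Rfc1, Pole3 and Pole4 lie close to each other between the tissues. Polymerase delta is not shown. Its ratio at E14.5 was wider in epithelium (88.0) than in fiber (31.5).

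Mcm8 and Mcm9, the repair helicases, were lower in fiber, in the averaged difference by less than any subunit of the replicative helicase. Mcm8 was at 6.70 to 16.8 CPM (median 10.7) in epithelium and 2.99 to 5.82 CPM (median 4.03) in fiber, and Mcm9 at 18.6 to 24.6 CPM (median 22.3) and 8.63 to 14.2 CPM (median 11.1). The averaged log2 differences were -1.35 (SE 0.10) and -1.02 (SE 0.05). Asf1a overlaps 19.2% of the Mcm9 exon length on the opposite strand. Without these 2 genes, 36 of 50 replication genes were lower in fiber in the averaged difference.

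Among the 8 factors of origin firing, 6 were lower in fiber in the averaged difference. Cdc7, the kinase subunit that fires origins, was at 11.5 to 33.5 CPM (median 22.2) in epithelium and 2.79 to 7.85 CPM (median 5.96) in fiber, with a difference of -1.91 (SE 0.08). Cdc45, which joins the loaded helicase, differed by -2.61 (SE 0.09). The 4 GINS subunits, which form 1 complex, did not move as 1: Gins1 differed by -3.09 (SE 0.18), Gins3 by -1.93 (SE 0.13), Gins2 by -1.67 (SE 0.10) and Gins4 by -0.24 (SE 0.06). Gins4 was at 20.2, 18.01 and 18.48 CPM in E14.5 epithelium and 14.8, 13.9 and 14.7 CPM in E14.5 fiber, and at 14.4, 16.46 and 18.04 and 16.7, 14.1 and 15.9 CPM at P0.5, where the groups overlap. Gins1 was at 10.9, 7.18 and 8.94 and 1.26, 0.374 and 1.10 CPM at E14.5, with no overlap. Gins2 shares 67.3% of its exon length with Gse1 on the opposite strand, so its value is uncertain. Dbf4 and Mcm10 are described with the change over time.

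Of the 12 polymerase genes, 8 were lower in fiber at all 4 stages, against at most 19.4% of all genes tested. Pole, the catalytic subunit of the leading strand polymerase epsilon (gene at chr5:110286306-110337474), was at 78.1, 80.8 and 86.2 CPM in E14.5 epithelium and 6.36, 2.99 and 6.66 CPM in E14.5 fiber. Its second subunit Pole2 was at 12.98, 11.6 and 14.0 and 0.530, 0.748 and 1.77 CPM. No fiber library reached an epithelium library for either gene. The averaged differences were -4.25 (SE 0.10, adjusted p = 2.85e-22) and -4.31 (SE 0.14, adjusted p = 5.71e-19) in edgeR's quasi-likelihood test. The 2 small histone-fold subunits of the same enzyme, Pole3 and Pole4, were called at no stage: Pole3 was at 11.6 to 16.4 CPM (median 15.1) in epithelium and 11.1 to 16.7 CPM (median 13.2) in fiber, and Pole4 at 14.3 to 21.9 CPM (median 18.2) and 19.8 to 26.3 CPM (median 21.5). Their averaged differences were -0.12 (SE 0.05) and 0.27 (SE 0.05). Pole3 is also known from a chromatin remodelling complex, and both proteins from histone acetylation complexes.

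Polymerase delta, the lagging strand enzyme, was also split. The catalytic subunit Pold1 and the accessory subunit Pold3 were lower in fiber, with log2 differences of -2.50 (SE 0.08) and -1.50 (SE 0.05). Pold2 was at 19.0, 18.49 and 20.7 CPM in epithelium and 20.3, 20.0 and 19.4 CPM in fiber at E14.5, where the groups overlap. At P0.5 it was at 12.05, 11.9 and 16.55 and 27.2, 28.7 and 37.5 CPM, with every fiber library above every epithelium library. The P0.5 difference of 1.20 (SE 0.12, adjusted p = 2.06e-09) passed edgeR's quasi-likelihood test, and the averaged one, 0.72 (SE 0.06), did not reach 2-fold and was -0.48 with library size alone. In that setting Pold2 was not called higher at P0.5 either. Pold4 had at most 27 counts in any group, and its fiber to epithelium ratio was 2.71 at E14.5 (95% counting interval 0.98 to 8.62) and 1.04 at P0.5 (0.529 to 1.97). Polymerase alpha and primase, which start each strand, were lower in all 4 subunits, with -1.98 for Pola1, -2.64 for Pola2, -2.70 for Prim1 and -1.60 for Prim2.

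Pcna, the sliding clamp, was at 29.1, 28.2 and 35.4 CPM in E14.5 epithelium and 5.17, 5.79 and 6.32 CPM in E14.5 fiber, and at 13.9, 17.2 and 22.5 and 3.17, 4.39 and 3.78 CPM at P0.5. The tissues did not overlap at either stage, and the averaged difference was -2.40 (SE 0.09). Its pseudogenes Pcna-ps1 and Pcna-ps2 could take or give reads. Of the 5 subunits that load the clamp, Rfc5, Rfc4 and Rfc3 were lower in fiber, with log2 differences of -2.65 (SE 0.09), -1.71 (SE 0.11) and -1.24 (SE 0.08). Rfc1, the large subunit, was at 73.4 to 99.7 CPM (median 83.4) in epithelium and 61.7 to 78.0 CPM (median 71.1) in fiber, and Rfc2 at 18.8 to 38.3 CPM (median 27.7) and 16.4 to 23.0 CPM (median 20.4). Their averaged differences of -0.24 (SE 0.03) and -0.45 (SE 0.05) stayed under 2-fold. Opposite-strand genes overlap 15.1% of the exon length of Rfc2, 12.7% of Rfc4 and 10.7% of Rfc5.

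The single-strand binding protein RPA has 3 subunits, and they differed from each other. Rpa3 was lower in fiber at each stage, with an averaged difference of -1.61 (SE 0.10) and levels of 2.73 to 5.85 CPM (median 3.64) in fiber and 9.44 to 14.6 CPM (median 11.6) in epithelium. Rpa2 differed by -0.76 (SE 0.08), and Rpa1 by -0.02 (SE 0.04). Fen1, the flap nuclease, and Lig1, the ligase that seals the lagging strand, had differences of -2.26 (SE 0.09) and -2.86 (SE 0.08). Lig1 was at 32.4 to 84.9 CPM (median 53.3) in epithelium and 5.19 to 11.6 CPM (median 7.02) in fiber, with no overlap.

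The 2 largest averaged differences were in deoxynucleotide synthesis. Rrm2, the regulated subunit of ribonucleotide reductase (gene at chr12:24708241-24714146), was at 62.6, 53.7 and 64.5 CPM in E14.5 epithelium and 4.77, 2.06 and 4.13 CPM in E14.5 fiber. At E18.5 it was at 29.5, 33.3 and 28.7 and 0.691, 0.532 and 0.691 CPM. Tk1, the S phase thymidine kinase, was at 17.2, 17.3 and 22.7 and 1.33, 1.03 and 1.43 CPM at E14.5, and at 10.9, 15.04 and 12.03 and 0.777, 0.266 and 0.307 CPM at E18.5. Neither gene's tissues overlapped. The averaged differences were -5.08 (SE 0.13, adjusted p = 4.5e-21) and -4.64 (SE 0.14, adjusted p = 6.91e-20) in edgeR's quasi-likelihood test. Rrm1, the large reductase subunit, which is known to be more stable over the cycle, differed by -2.15 (SE 0.06), and Tyms, thymidylate synthase, by -2.81 (SE 0.08). Tyms has a named pseudogene, Tyms-ps.

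The share of the epithelium level that was left in fiber separates these genes. At E14.5 the median over the 52 genes was 21.5%, and 11 genes were under 10%. The later medians were 26.0%, 27.4% and 31.5%. Rrm2 was at 6.06%, 2.13%, 2.09% and 2.32%, and Mcm6 at 8.47%, 4.67%, 3.54% and 4.77%. Foxe3 and Cdh1, which mark the epithelium, were at 9.15%, 6.89%, 7.22% and 5.71% and at 6.17%, 2.73%, 3.62% and 3.87%. The proliferation gene Mki67 was at 6.401%, 3.71%, 2.96% and 3.89%. At E18.5, Rrm2, Mcm6, Orc1, Cdc6, Pole, Pole2 and Tk1 had 2.09% to 4.37% of their epithelium level left, less than Foxe3. Against Cdh1, Pole was higher, Cdc6, Tk1 and Mcm6 were close to it, and Rrm2, Orc1 and Pole2 were lower. Mcm3 with 6.71% and Gmnn with 7.15% lay between Cdh1 and Foxe3. Mcm2 had 34.5% and Pcna 18.9%. How much of the fiber signal comes from epithelium cells in the fiber samples was not tested.

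Within epithelium, replication genes were lower at P0.5 than at E14.5. Of the 52 genes 19 fell, against 3.21% of all genes tested, and 1 rose, against 10.1%. The median log2 change was -0.91 over the replication genes and 0.01 over all genes. With no minimum on the fold, 43 genes were lower, against 28.6% of all genes, and 2 were higher, against 30.2%, at an adjusted p under 0.05 in edgeR's quasi-likelihood test. The summed level of all 52 genes was 2282, 2114 and 2285 CPM in the E14.5 libraries, then 1645, 1629.8 and 1658, then 1478, 1565 and 1462, and last 1124, 1204 and 1474 at P0.5. The E14.5 libraries were the highest, and P0.5 replicate 3 lay within the E18.5 range.

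Cdc6 had the strongest fall in epithelium, from 24.9, 22.4 and 22.5 CPM at E14.5 to 5.41, 7.69 and 11.9 CPM at P0.5, a log2 change of -1.47 (SE 0.19, adjusted p = 4.5e-07) in edgeR's quasi-likelihood test. Mcm10, which acts in helicase firing, went from 37.4, 35.1 and 37.3 to 10.3, 12.3 and 17.3 CPM (-1.45, SE 0.13, edgeR adjusted p = 3.17e-09). Mcm5 went from 90.7, 76.6 and 93.3 to 25.8, 32.5 and 42.8 CPM (-1.36, SE 0.16, edgeR adjusted p = 2.35e-07). In each of these genes every P0.5 library was below every E14.5 library. The other genes that fell were Orc1, Cdt1, Mcm3, Cdc7, Dbf4, Cdc45, Pola1, Pola2, Prim1, Pold1, Pole, Pole2, Rfc4, Fen1, Lig1 and Rrm2, with log2 changes from -1.35 for Orc1 to just past 2-fold for Pole2. Mcm6 went from 129, 120.5 and 125 to 53.4, 57.7 and 76.0 CPM, just short of the 2-fold limit in the fit.

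Several genes that were called at no stage between the tissues had small fitted changes in epithelium. The change was -0.01 (SE 0.07) for Orc5, -0.04 (SE 0.10) for Pole3, -0.12 (SE 0.08) for Orc4, -0.21 (SE 0.11) for Gins4 and -0.31 (SE 0.06) for Rfc1, none of them past 2-fold. Also called at no stage, Orc3, Rfc2 and Rpa1 had P0.5 epithelium levels of 85.2%, 65.8% and 67.5% of those at E14.5. Mcm9 was at 18.6, 21.1 and 20.3 CPM at E14.5 and 24.2, 22.4 and 24.6 CPM at P0.5 (0.24, SE 0.09), and Pole4 at 17.6, 15.4 and 17.6 and 18.6, 19.8 and 19.1 CPM (0.19, SE 0.09). Pold4 was called higher, with 6 counts at E14.5 and 27 at P0.5 over 3 libraries each (ratio 4.0, 95% counting interval 1.62 to 11.8).

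No replication gene was called between neighbouring stages in epithelium. From E14.5 to E16.5 edgeR's quasi-likelihood test called 0 of 52 in either direction, against 0.821% of all genes lower and 1.71% higher. At an unadjusted p under 0.05, 40 were lower there and 0 higher, DESeq2 called 0 at 2-fold, and with no fold minimum 36 passed as lower, against 12%, and 0 as higher, against 10.8%. From E16.5 to E18.5 the counts were also 0, against 0.547% lower and 6.75% higher, with 9 lower and 1 higher at an unadjusted p under 0.05, 0 by DESeq2, and 6 lower and 1 higher with no fold minimum (against 13.8% and 17%). From E18.5 to P0.5 they were 0, against 0.426% and 0.579%, with 17 lower and 1 higher at an unadjusted p under 0.05, 0 by DESeq2, and 9 lower and 0 higher with no fold minimum (against 6.82% and 6.43%). Of these steps, the first held the most genes that were lower by less than 2-fold.

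The size of the epithelium decline rests in part on single P0.5 libraries. P0.5 epithelium replicate 3 was the highest of its group for 47 of 52 replication genes, against 38.9% of all genes tested. Without it 27 genes fell, without P0.5 epithelium replicate 1 only 8 did, and without replicate 2 there were 13. How many of all genes fell in these fits is not given here, so the spread is not shown to be particular to replication genes. With each E14.5 or P0.5 epithelium library left out in turn, Orc1, Cdc6, Mcm3, Mcm5, Cdc45, Mcm10 and Pola1 fell in every case, and with library size alone 11 genes fell, with 302 of all 12427 genes in place of 399. Pigment cell markers also differed among these libraries, with summed levels of 159, 146 and 70.4 CPM in replicates 1, 2 and 3. From E14.5 to P0.5 all 6 pigment cell markers rose in epithelium, with summed levels of 4.20 to 11.2 CPM at first, then 2.09 to 7.27, 147 to 173 and 70.4 to 159 CPM. Of 6 retina and ciliary margin markers 4 rose, with sums of 14.96 to 23.7, 20.2 to 44.8, 147 to 210.1 and 136 to 167 CPM. All 5 mesenchyme markers in the table fell, with sums of 95.5 to 147, 29.8 to 58.6, 19.9 to 26.7 and 18.2 to 27.1 CPM. The 2 red cell markers that could be tested fell as well, with sums of 155 to 244, 12.2 to 18.97, 9.34 to 11.8 and 2.37 to 3.33 CPM. Most of the E14.5 sum was Hbb-y, with a mean of 193 CPM at E14.5 and 2.77 CPM at E16.5. Alas2 had means of 13.3 and 12.4 CPM at these stages, and the 4 other listed red cell genes had no count in epithelium. Of 8 endothelium markers 0 were called over the course, and their sums were 380.2 to 434, then 236 to 294, 324 to 441 and 267 to 325 CPM. Of 5 mural cell markers 1 rose, and the sums were 232 to 257, then 276 to 300.4, 381 to 448 and 399 to 444 CPM. From E14.5 to E16.5, 3 of 5 mesenchyme markers and 1 of 8 endothelium markers were called lower, and 1 of 5 mural cell markers higher. Of the pigment cell and the retina and ciliary margin markers, 0 were called in that step. Of the red cell markers, Hbb-y was lower there and the mean of Alas2 changed little. The part of other cell types in the epithelium decline was not tested.

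**Figure D3:**
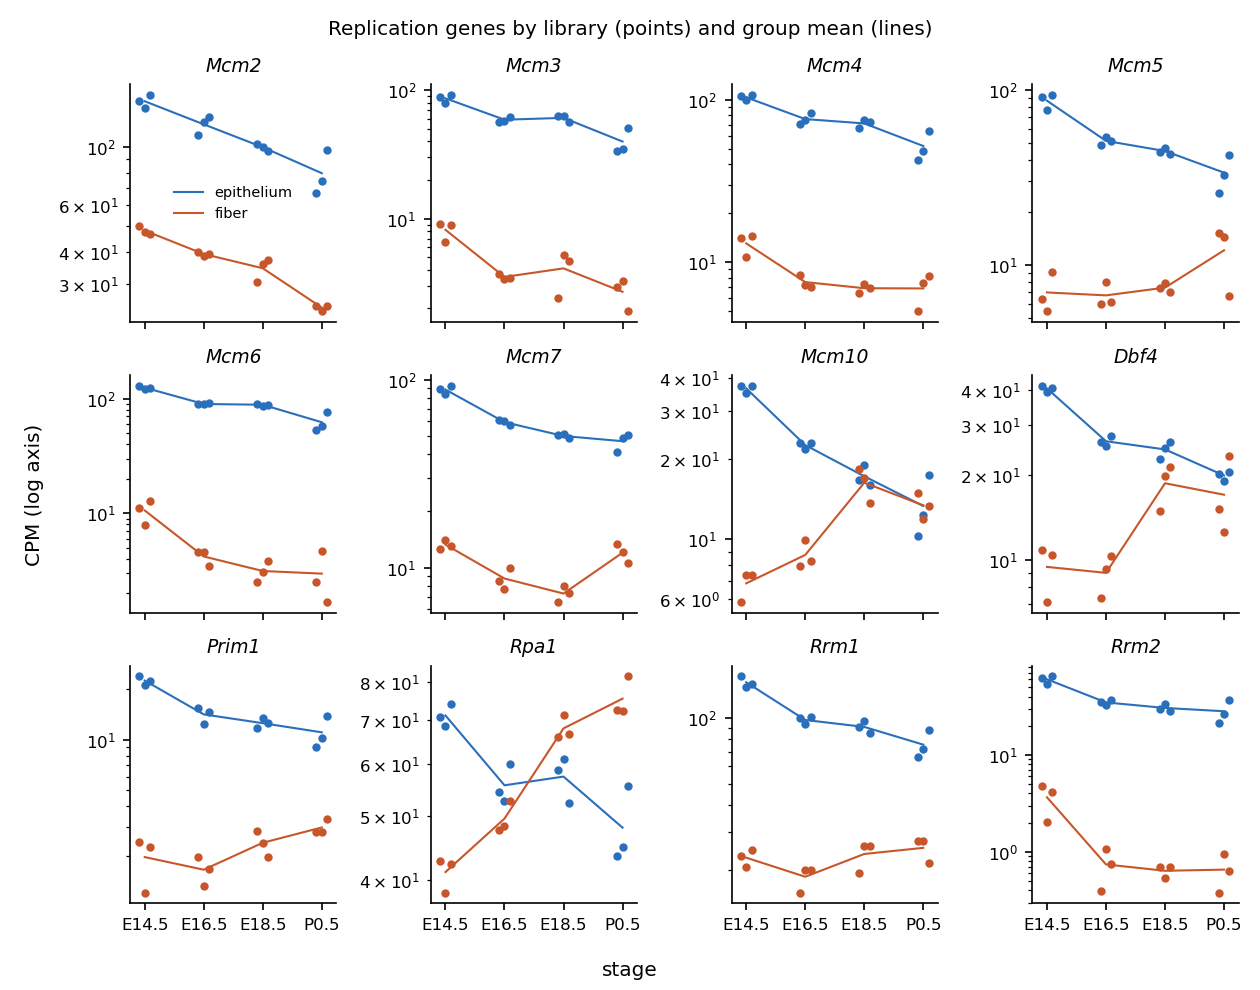
Level (CPM, log axis) of 12 replication genes in each library by stage; points are libraries, lines join group means, blue is epithelium and red is fiber. Mcm2 to Mcm7, Rrm1 and Rrm2 are lower in fiber throughout. With the TMM scaling used here, the tissues meet in Mcm10 at E18.5 and P0.5. Rpa1 crosses on this scaling, from 42.7, 38.2 and 42.3 CPM in E14.5 fiber to 72.4, 72.2 and 81.5 CPM in P0.5 fiber.

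In fiber, fewer replication genes changed, and 34 of 52 changes from E14.5 to P0.5 were fitted below 0. Over this course 9 of 52 fell, against 5.24% of all genes tested, and the median log2 change was -0.25, against -0.02. No gene rose in edgeR's quasi-likelihood test, against 6.69% of all genes, with 8 higher at an unadjusted p under 0.05 and 0 by DESeq2. With no fold minimum 22 were lower, against 27.2%, and 6 higher, against 27.3%. The 9 genes were Cdc6, Mcm3, Mcm6, Gins3, Pola2, Pole, Pole2, Rrm2 and Tk1. With library size alone 22 genes fell, but so did 2168 of all 12427 genes in place of 651, and the median of all genes moved to -0.56. With each E14.5 or P0.5 fiber library left out in turn, 6 to 11 genes fell, and Mcm3, Mcm6, Pole and Rrm2 fell in each case. In the same fits 0 to 3 genes rose, 1 without E14.5 fiber replicate 2, 2 without E14.5 fiber replicate 3, 3 without P0.5 fiber replicate 2 and 1 without P0.5 fiber replicate 3. Markers of other cells changed in fiber over the same course. Of 5 epithelium markers 2 fell, with sums of 311 to 360 CPM at E14.5 and 182 to 241 CPM at P0.5. Of 5 mesenchyme markers 3 fell, with sums of 10.1 to 12.98 CPM at first and 1.47 to 2.91 CPM at the end. Both red cell markers that could be tested fell, with sums of 18.9 to 30.2 and 0.21 to 1.04 CPM. Mean levels went from 23.6 to 0 CPM for Hbb-y and from 2.62 to 0.627 CPM for Alas2. The part of these cells in the fiber changes was not tested.

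Rrm2 had the strongest fall in fiber. Its levels were 4.77, 2.06 and 4.13 CPM at E14.5, then 0.397, 1.08 and 0.747 CPM, then 0.691, 0.532 and 0.691 CPM, and 0.380, 0.958 and 0.630 CPM at P0.5. Every later library was below every E14.5 library, and the later stages overlapped each other. The log2 change to P0.5 was -2.41 (SE 0.42, adjusted p = 3.91e-05) in edgeR's quasi-likelihood test, from 143 counts over 3 libraries to 21 (ratio 0.185, 95% counting interval 0.111 to 0.293). Mcm6 went from 11.1, 7.94 and 12.7 to 2.53, 4.71 and 1.68 CPM (-1.76, SE 0.24, edgeR adjusted p = 1.8e-06) and Mcm3 from 9.15, 6.54 and 8.85 to 2.91, 3.27 and 1.89 CPM (-1.59, SE 0.25, edgeR adjusted p = 1.24e-05). Between E14.5 and E16.5, 9 genes fell in fiber, against 1.61% of all genes, namely Orc1, Cdc6, Mcm3, Mcm6, Pole, Pole2, Rfc5, Rrm2 and Tk1. Without E14.5 fiber replicate 3 there were 5. No gene rose in that step in edgeR's quasi-likelihood test, against 1.46% of all genes, with 3 higher at an unadjusted p under 0.05 and 0 by DESeq2. With no fold minimum 17 were lower, against 7.6%, and 2 higher, against 9.25%.

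Later steps in fiber held a single call. Dbf4, the regulatory subunit of the Cdc7 kinase, rose from E16.5 to E18.5 by 1.04 (SE 0.18, adjusted p = 0.000213) in edgeR's quasi-likelihood test, 1 of 52 genes against 1.91% of all genes, and it was not called without E16.5 fiber replicate 1 or with either library size scaling. No gene fell in that step, against 0.724% of all genes, with 2 lower at an unadjusted p under 0.05, 0 by DESeq2, and with no fold minimum 1 lower (against 9.19%) and 3 higher (against 12.9%). From E18.5 to P0.5 no gene was called in either direction, against 0.241% lower and 0.298% higher, with 3 lower and 6 higher at an unadjusted p under 0.05, 0 by DESeq2, and with no fold minimum 1 lower (against 3.35%) and 1 higher (against 2.86%). Without P0.5 fiber replicate 3, 1 gene rose in this last step.

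Whether a gene's change from E14.5 to P0.5 differed between the tissues was tested as an interaction, the change in fiber minus the change in epithelium. For 11 of 52 genes it was higher, against 3.77% of all genes tested, and for 1 it was lower, against 7.92%. With no fold minimum 20 were higher, against 20.6%, and 3 lower, against 21.4%. The median was 0.34 over the replication genes and -0.04 over all genes. The 11 genes were Gmnn, Mcm5, Dbf4, Cdc45, Mcm10, Prim1, Pold2, Rfc4, Rpa1, Rpa2 and Rrm1. They come from every role but origin recognition, the repair helicases and strand joining. With library size alone the median of all genes moved to -0.68, and of all 12427 genes 138 were higher and 3260 lower. In that setting 3 of the 11 were still called, namely Mcm5, Dbf4 and Mcm10, and 6 replication genes were lower. With each library left out in turn, 8 of the 11 were called throughout, and Gmnn, Rfc4 and Rpa2 were not.

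Mcm10 showed the largest such difference (2.41, SE 0.21, adjusted p = 9e-09 in edgeR's quasi-likelihood test). In fiber, in order of age, it was at 5.83, 7.38 and 7.33 CPM, then 7.94, 9.98 and 8.31, then 18.2, 16.9 and 13.7, and last 14.9, 11.9 and 13.3 CPM. In epithelium the same stages gave 37.4, 35.1 and 37.3 CPM, then 22.8, 21.7 and 22.9, then 16.7, 18.9 and 15.99, and last 10.3, 12.3 and 17.3 CPM. Fiber was below epithelium with no overlap at E14.5 and E16.5, and the tissues overlapped at E18.5 and P0.5. The fiber change alone, 0.97 (SE 0.17), did not reach 2-fold.

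Dbf4 took a like course (1.84, SE 0.23, adjusted p = 1.48e-06 in edgeR's quasi-likelihood test). Its fiber levels by age were 10.8, 7.10 and 10.5 CPM, then 7.34, 9.31 and 10.4, then 14.8, 19.8 and 21.4, and last 15.2, 12.5 and 23.3 CPM. Its epithelium levels were 41.2, 39.3 and 40.7 CPM, then 26.2, 25.3 and 27.4, then 22.8, 24.8 and 26.2, and last 20.2, 19.1 and 20.4 CPM. Fiber lay below epithelium with no overlap until P0.5, where the tissues overlapped. Its kinase partner Cdc7 was at 6.96, 7.76 and 7.76 CPM in E14.5 fiber and 2.79, 4.47 and 4.09 CPM in P0.5 fiber, and its interaction of 0.18 (SE 0.25) was not called.

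Mcm5 was the 1 subunit of the replicative helicase with a called interaction (2.16, SE 0.29, adjusted p = 3.38e-06 in edgeR's quasi-likelihood test). By age it was at 6.36, 5.42 and 9.10 CPM in fiber, then 5.95, 7.98 and 6.16, then 7.42, 7.85 and 6.99, and last 15.3, 14.4 and 6.61 CPM. P0.5 replicates 1 and 2 were above every other fiber library, and replicate 3 was within the E14.5 range. Mcm6 over the same stages had an interaction of -0.76 (SE 0.28), Mcm3 of -0.48 (SE 0.29), Mcm4 of 0.09 (SE 0.21), Mcm2 of -0.07 (SE 0.14) and Mcm7 of 0.77 (SE 0.13), none of them called. The promoter stretches of Mcm5 and Mcm6 both hold E2F-type and CCAAT matches. Whether Mcm5 differed from the other subunits was not tested.

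With TMM scaling, Rpa1 and Pold2 were below or near the epithelium level in E14.5 fiber and above it in P0.5 fiber. The P0.5 position depends on the scaling. With library size alone the median P0.5 difference of all genes moved from -0.06 to -1.50, and with crystallins and Rn45s left out to -0.71. No replication gene was called higher in P0.5 fiber in either setting. Rpa1 was at 70.7, 68.6 and 73.9 CPM in E14.5 epithelium and 42.7, 38.2 and 42.3 CPM in E14.5 fiber, and at 43.5, 44.8 and 55.6 and 72.4, 72.2 and 81.5 CPM at P0.5. The tissues did not overlap at either stage, in opposite directions, and the stage differences of -0.79 (SE 0.08) and 0.65 (SE 0.08) did not reach 2-fold. The interaction was 1.44 (SE 0.12, adjusted p = 2.57e-09) for Rpa1 and 1.16 (SE 0.17, adjusted p = 7.89e-06) for Pold2 in edgeR's quasi-likelihood test, and with library size alone it was 0.80 and 0.53, neither called. Rpa2 had an interaction of 1.14 (SE 0.22) and Rpa3 of -0.33 (SE 0.29), the latter not called.

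The remaining genes with a higher interaction were all fitted lower at P0.5 in epithelium. Prim1, the catalytic primase subunit, was at 2.45, 1.21 and 2.28 CPM in E14.5 fiber and 2.79, 2.79 and 3.36 CPM in P0.5 fiber (1.57, SE 0.29). Rrm1 was at 23.1, 20.7 and 24.7 and 27.3, 27.1 and 21.5 CPM (1.10, SE 0.16), and Cdc45 at 3.31, 2.43 and 2.95 and 2.15, 2.71 and 3.36 CPM (1.17, SE 0.27). Gmnn had 34 counts in E14.5 fiber and 45 in P0.5 fiber (1.48, SE 0.46), and Rfc4 was at 3.58, 3.36 and 3.63 and 4.30, 4.47 and 1.57 CPM (1.02, SE 0.31). Ribonucleotide reductase had its subunits on opposite sides, since Rrm2 had the only lower interaction (-1.32, SE 0.47, adjusted p = 0.0275 in edgeR's quasi-likelihood test), and it was not called without E14.5 fiber replicate 1, E14.5 fiber replicate 3, P0.5 fiber replicate 1 or P0.5 fiber replicate 3.

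**Figure D4:**
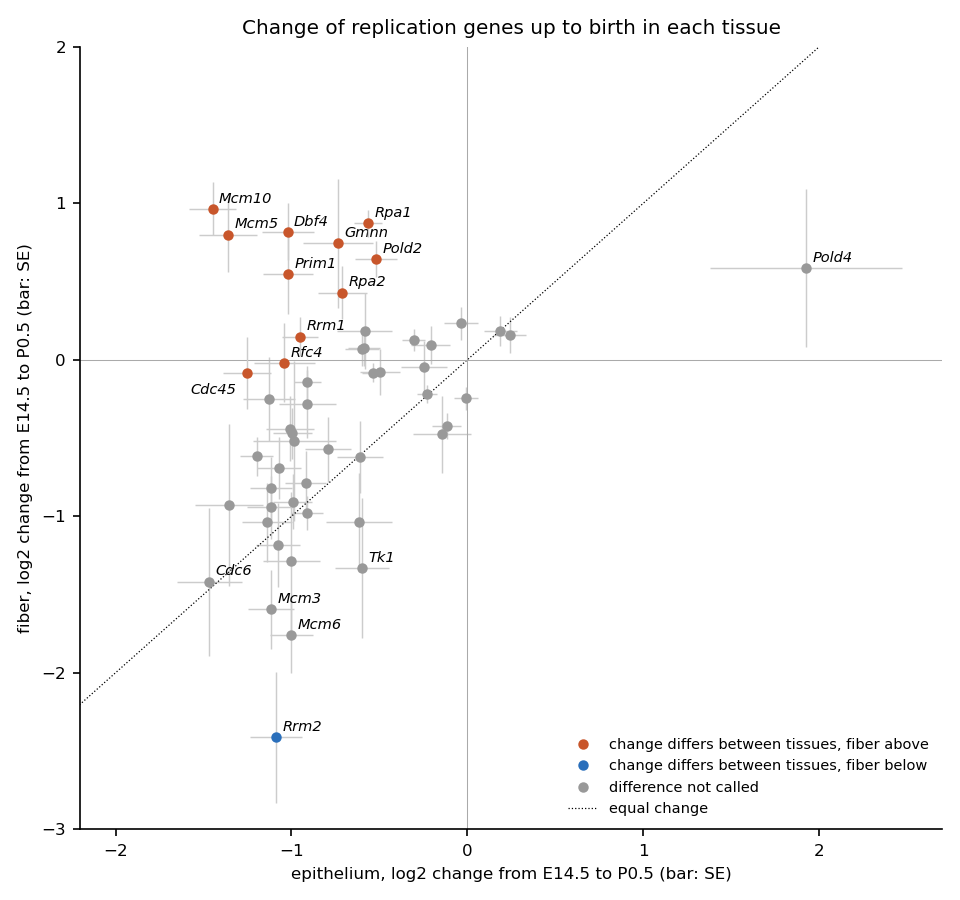
Log2 change from E14.5 to P0.5 of each replication gene in epithelium (horizontal axis) and in fiber (vertical axis), with SE bars; the dotted line marks equal change. Red points (11) lie above the line and the blue point, Rrm2, below it, where the difference between the tissues was called; grey points were not called, and most genes lie left of 0, with 49 of 52 changes in epithelium fitted below 0.

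Other genes of the pathway, taken from lists written with earlier results of these data known, were compared in the averaged difference between tissues, where 22.2% of all genes were lower in fiber and 15.7% higher. Among 23 partners of initiation and the fork, 14 were lower in fiber and 1 was higher, with a median of -2.41. Dscc1, a subunit of an alternative clamp loader, Clspn (claspin, a checkpoint mediator at the fork) and Ticrr, which helps to fire origins, were lower, with -5.04, -4.33 and -4.32. Timeless, a fork protection factor, was the 1 that was higher (3.21, and still past 2-fold with library size alone), while its partner Tipin was lower (-2.59). Of 11 genes that copy chromatin behind the fork, 7 were lower and none higher (median -1.5), among them Chaf1b (-4.72), Hells (-4.04) and Chaf1a (-3.97). Of 25 genes of E2F control and S phase entry, 14 were lower and 0 higher (median -1.79), led by E2f7 (-4.66), Ccna2 (-4.63) and E2f8 (-4.49). Of 15 genes of the fork checkpoint and repair, 10 were lower and 0 higher (median -2.17), led by Fanci (-5.02) and Wee1 (-4.73).

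Nucleotide supply beyond the members was mixed. Of 17 tested genes, 6 were lower in fiber and 2 higher (median -0.62), against 22.2% and 15.7% of all genes. Shmt1 and Dut were lower, with -3.38 and -2.56. Paics, an enzyme of purine synthesis, and Rrm2b, the reductase subunit known from cells outside S phase, were higher by 1.55 and 1.47, and by 0.34 and 0.26 with library size alone. Rrm2b was at 9.89, 9.32 and 7.62 CPM in E14.5 epithelium and 30.6, 31.7 and 28.1 CPM in E14.5 fiber, opposite in direction to Rrm2. Of 11 translesion and repair polymerases, 3 were lower and 1 was higher, Poln by 4.19 (median -0.05), close to the shares of all genes. Of 9 genes of mitochondrial DNA replication 0 were called by edgeR or by DESeq2 (median -0.10), with 7 at an unadjusted p under 0.05, and the 18 genes of mitosis were all lower (median -4.49).

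Over time, 15 of 18 mitosis genes fell in epithelium and 16 in fiber from E14.5 to P0.5, against 3.21% and 5.24% of all genes. Of 25 E2F and S phase genes 6 fell in epithelium and 7 in fiber. E2f1, chosen after its values were seen, was the 1 gene of that list that rose in fiber (1.66, interaction 2.03), and with library size alone the values were 1.11 and 1.40. Its fiber levels were 6.10, 5.33 and 5.48 CPM at E14.5 and 17.1, 17.4 and 19.1 CPM at P0.5, with no overlap, and in epithelium they were 16.8, 16.8 and 15.7 and 9.21, 13.2 and 15.4 CPM. E2f2, E2f7 and E2f8 had fiber changes of -1.12, -0.95 and -0.79.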

How the data were processed

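The deposited table holds whole-number counts per gene, 1 column per library, with no normalization by the authors, per the file headers and the values. Per the labels' protocols, RNA was extracted with Trizol and stranded total RNA libraries were made after depletion of ribosomal RNA. Per the submitters' processing notes, the tools were HTSeq 0.6.1, TopHat2 2.0.13, Cufflinks 2.2.1, Cuffdiff and Trim Galore 0.4.1, and the build was mm10. Their roles, the annotation and the strand setting in counting were not given in the sources used here. Gene coordinates and exon lengths are from GENCODE M21 (GRCm38).

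Counts were filtered with filterByExpr (minimum count 10, minimum total 15), which left 12427 genes and removed 184, scaled with TMM and fitted in edgeR 4.0.16 as 8 group means over 24 libraries (16 residual degrees of freedom). Each comparison was a contrast in the quasi-likelihood test, two-sided, with Benjamini-Hochberg adjustment over all genes tested. Errors of log2 differences are SE from the fit, and those of CPM are SD. Intervals of count ratios are exact 95% intervals and cover counting error only, since reads carry no molecular identifiers. The labels call the replicates biological; if libraries of a group share animals, p-values measure a narrower spread. The script was tested on simulated counts.

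Named members are the largest and smallest averaged difference per role, those called at no stage, the 3 most negative and positive changes per tissue and the interaction calls; of other lists, at most 3 genes each way. A gene that this rule would name is not reported here. The members, lists and motifs were chosen with earlier results of these data known. Alternatives were other scalings, DESeq2 1.42.0, no filter, no fold minimum, a replicate block and leaving out each library.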

Additional observations from a re-analysis of the deposited data

Results flagged for a closer look

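For 12 replication genes the change from E14.5 to P0.5 differed between fiber and epithelium in edgeR's quasi-likelihood test, at an adjusted p under 0.05 and at least 2-fold. It was higher for 11, against 3.77% of all genes tested, and lower for 1, against 7.92%. The value is the log2 change in fiber minus the log2 change in epithelium. It was 2.41 for Mcm10, 2.16 for Mcm5, 1.84 for Dbf4, 1.57 for Prim1, 1.48 for Gmnn, 1.44 for Rpa1, 1.17 for Cdc45, 1.16 for Pold2, 1.14 for Rpa2, 1.10 for Rrm1, 1.02 for Rfc4 and -1.32 for Rrm2. With library size alone, 3 of the 11 higher calls held (Mcm5, Dbf4 and Mcm10). With each library left out in turn, 8 of the 11 held throughout, and Gmnn, Rfc4, Rpa2 and the lower call of Rrm2 did not.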

How the results depend on the processing

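Leaving out each library in turn gave 39 lower genes at E14.5 and E16.5, 36 to 37 at E18.5, 33 to 36 at P0.5 and 38 to 39 in the averaged difference. Higher genes numbered 0 to 1 at E14.5 and E16.5, 1 to 2 at E18.5, 2 at P0.5 and 1 on average. From E14.5 to P0.5 there were 8 to 27 lower and 1 higher in epithelium, and 6 to 11 lower and 0 to 3 higher in fiber. Between stages the ranges in fiber were 5 to 11 lower from E14.5 to E16.5, 0 to 1 higher from E16.5 to E18.5 and 0 to 1 higher from E18.5 to P0.5. The interaction gave 10 to 12 higher and 0 to 2 lower genes. Counts over all genes in the fits that left out a library are not given here. With library size alone, and with crystallins and Rn45s left out of it, 0 genes were higher in fiber at each stage and on average, and 0 rose from E16.5 to E18.5 in fiber. With library size alone 11 genes fell in epithelium and 22 in fiber, against 302 and 2168 of all 12427 genes. The interaction then gave 3 higher and 6 lower, against 138 and 3260 of all genes. Orc2, Orc3, Orc4 and Orc5 turned to -0.19, -1.11, -1.02 and -1.16. RLE size factors gave 0 higher at E14.5, and DESeq2 0 at E14.5 and at E16.5. With no fold minimum, 4, 5, 3, 4 and on average 6 genes were higher in fiber. In that setting, from E14.5 to P0.5, 43 were lower and 2 higher in epithelium, and 22 lower and 6 higher in fiber. Between stages it gave 36, 6 and 9 lower and 0, 1 and 0 higher in epithelium, 17, 1 and 1 lower and 2, 3 and 1 higher in fiber, and an interaction of 20 higher and 3 lower.

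Same-numbered libraries of the 2 tissues did not meet the rule for pairing: 3 of 12 pairs had a correlation over 0.1 (range -0.07 to 0.22), and 13 of 24 libraries correlated best with their own number. A fit with the replicate block gave a median averaged difference of -1.92, as without it, and it changed no call named above. Depth limits Pold4, with at most 27 counts a group, and Orc1, Gmnn, Gins1, Pole2, Cdc6 and Tk1 in fiber. It also limits Rrm2 in fiber after E14.5, with 25, 21 and 21 counts over 3 libraries at each later stage.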
